A study of Mus musculus with 8 samples.

Results

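MAP kinases and the MAP2 kinases that activate them were followed at the RNA level in spleen neutrophils of WT and Cxcr2-/- mice. The 9 genes were chosen by symbol from the 55414 genes listed in the count files, as kinases of the ERK, p38 and JNK branches and their direct activators. They are the MAP kinase genes Mapk3, Mapk8, Mapk9, Mapk13 and Mapk14 and the MAP2 kinase genes Map2k1, Map2k2, Map2k3 and Map2k4. Neutrophils were sorted as CD45+ CD11b+ Ly6G+ F4/80- cells from the spleens of 4 WT mice and 4 mice with a germline deletion of the chemokine receptor gene Cxcr2. All mice were 10 weeks old, on the FVB background and kept under specific and opportunistic pathogen free conditions. Each mouse gave 1 library of ribosome-depleted RNA, so each group has 4 replicates. Because the deletion is present in every cell of the animal, these data do not separate a loss of Cxcr2 in the neutrophil from its loss elsewhere.

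MAP kinase cascades have 3 tiers, in which a MAP3 kinase phosphorylates a MAP2 kinase and the MAP2 kinase phosphorylates a MAP kinase. In neutrophils, the ERK and p38 branches relay signals from chemoattractant and cytokine receptors to migration, adhesion, degranulation and gene expression. Kinases of these tiers are switched on by phosphorylation, which RNA does not measure, so the values below are amounts of transcript and not kinase activity.

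Each library held 34220182 to 46233555 counts on genes. Cxcr2 RNA ranged from 1719 to 2252 CPM (counts scaled to a common TMM-normalized library size) in WT and from 12.9 to 20.7 CPM in Cxcr2-/- mice, as labelled. Apart from Cxcr2, neutrophil markers were abundant in all libraries, with S100a8 at 8956 CPM or more. Their levels differed between the groups in both directions. Of the 7, 4 were higher and 2, Cxcr2 and Csf3r, lower in Cxcr2-/- libraries (edgeR adjusted p under 0.05). Among all genes tested 23.7% were higher and 21.0% lower. Mean Ly6g went from 226 CPM in WT to 539 CPM in Cxcr2-/- libraries, and mean Csf3r from 6960 to 3334 CPM. The T cell gene Cd3e was at no more than 0.563 CPM and the macrophage gene C1qa at no more than 5.79 CPM. Of the 5 T cell markers, which summed to 82.9 to 112 CPM in WT and 89.0 to 137 CPM in Cxcr2-/- libraries, Cd3d gave nearly all, at 80.1 CPM or more. The summed CPM of 7 monocyte and macrophage markers, most of it from Csf1r, ranged from 445 to 546 in WT and from 206 to 306 in Cxcr2-/- libraries. The 5 B cell markers summed to 22.4 to 58.1 CPM in WT and 12.8 to 27.1 CPM in Cxcr2-/- libraries. With the mean level of 31 markers of other cells as a covariate, the same 5 kinase genes passed as without it, and Map2k3 passed as well (-0.28, edgeR adjusted p = 0.0283). That mean (log2 scale) was 1.86 to 2.32 in WT and 1.59 to 2.39 in Cxcr2-/- libraries. Its groups overlapped, unlike the monocyte and macrophage sums, so this covariate does not stand for the monocyte difference, whose part was not tested. Genes of immature neutrophils (those of 9 granule proteins and the transcription factor gene Cebpe) and of the cell cycle also separated the groups. The 10 immature neutrophil genes summed to between 21971 and 26764 CPM in WT and between 51503 and 74023 CPM in Cxcr2-/- libraries, and the 10 cell cycle genes to between 309 and 360 CPM and between 1016 and 1134 CPM, respectively. The share of read pairs that HTSeq assigned to no feature of a gene (below, pairs that met no gene) was 31.4% to 41.5% in WT. It was 26.7% to 31.9% in Cxcr2-/- libraries. Whether these pairs lay in introns or between genes was not tested. The part of these differences in the results on kinase genes was not tested, except where a covariate is named. In sorted bulk RNA, fewer cells of a given stage and less RNA per cell cannot be told apart.

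To see which kinases of each branch carried the RNA, levels were compared per kb of merged exon, as counts of longer genes are higher at the same number of transcripts. In WT neutrophils the p38 alpha gene Mapk14 was highest, at 123 ± 13.1 CPM per kb (SD, n = 4). Mapk3, which encodes ERK1, followed at 97.0 ± 15.5 CPM per kb, and was below Mapk14 in all 4 libraries although the ranges of the groups of values overlapped. Next came Mapk13, encoding p38 delta, at 58.4 ± 7.54 CPM per kb, and Map2k3, encoding the p38 activator MKK3, at 56.4 ± 1.99 CPM per kb. These neighbours overlapped, with Mapk13 above Map2k3 in 3 of 4 libraries. Map2k1, which encodes the ERK activator MEK1, was at 27.4 ± 2.78 CPM per kb in WT, Map2k4, encoding MKK4, an activator of JNK and p38, at 19.2 ± 0.526 and Map2k2, encoding MEK2, at 12.8 ± 1.41 CPM per kb. The JNK genes were far lower, with Mapk9 (JNK2) at 3.09 ± 0.170 and Mapk8 (JNK1) at 1.18 ± 0.105 CPM per kb.

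**Figure D1:**
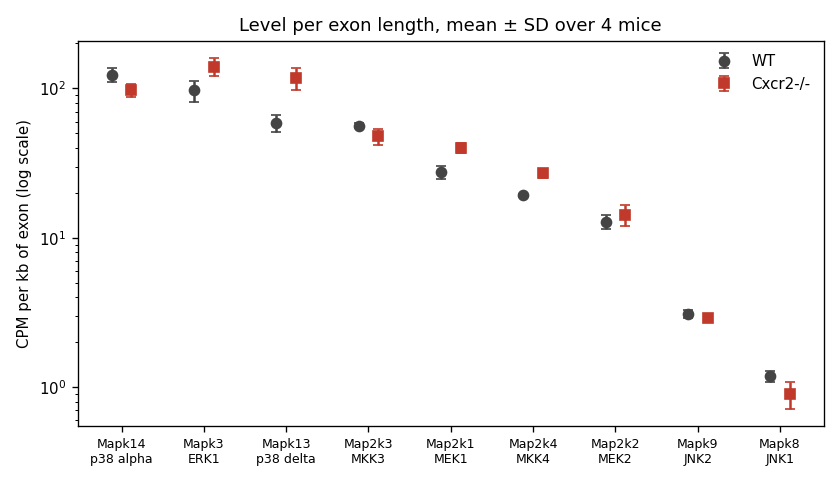
Level of the 9 genes in CPM per kb of merged exon, on a log axis, as mean ± SD over 4 WT mice (circles) and 4 Cxcr2-/- mice (squares), in the order of the WT level. Mapk14 is highest in WT and Mapk3 in Cxcr2-/- neutrophils, and both JNK genes lie under 4 CPM per kb in either group.

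The order at the top was different in Cxcr2-/- neutrophils. Mapk3 was highest there, at 140 ± 19.4 CPM per kb, ahead of Mapk13 at 118 ± 20.3 and Mapk14 at 97.2 ± 10.2 CPM per kb. Each was above the next in all 4 libraries, and the ranges of neighbours overlapped. The ranks of the other 6 genes were the same in both groups. With the length of the longest transcript in place of merged exons, Map2k3 came before Mapk13 and Map2k2 before Map2k4 in WT, and no rank of the means changed in Cxcr2-/- neutrophils. Map2k2, for example, went from 12.8 to 30.2 CPM per kb in WT. Mapk13 and Mapk14 came close in Cxcr2-/- neutrophils by that length, at 126 and 118 CPM per kb. The order of these genes within a Cxcr2-/- library thus depends on the length used.

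Expression of the 9 genes was then compared between genotypes with edgeR's quasi-likelihood test, fitted over 16778 genes, with Benjamini-Hochberg adjustment. Mapk3, Mapk13, Map2k1 and Map2k4 were higher and Mapk14 was lower in Cxcr2-/- than in WT neutrophils, and the other 4 genes did not pass an adjusted p of 0.05. By the same test 23.7% of all genes tested were higher and 21.0% were lower, so that 5 of 9 called stands beside 44.7% of all genes called in either direction. All 9 genes passed the filter on low counts, the lowest count in any library being 310. The median log2 fold change was 0.16 for the 9 genes and 0.01 for all genes tested. At the 1.5-fold limit of the study, 1 of the 9 genes was called higher, Mapk13, and 0 lower, where 15.7% of all genes were called in each direction. The CPM of the groups did not overlap for 5 of the 9 genes, against 41.6% of all genes tested.

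**Figure D2:**
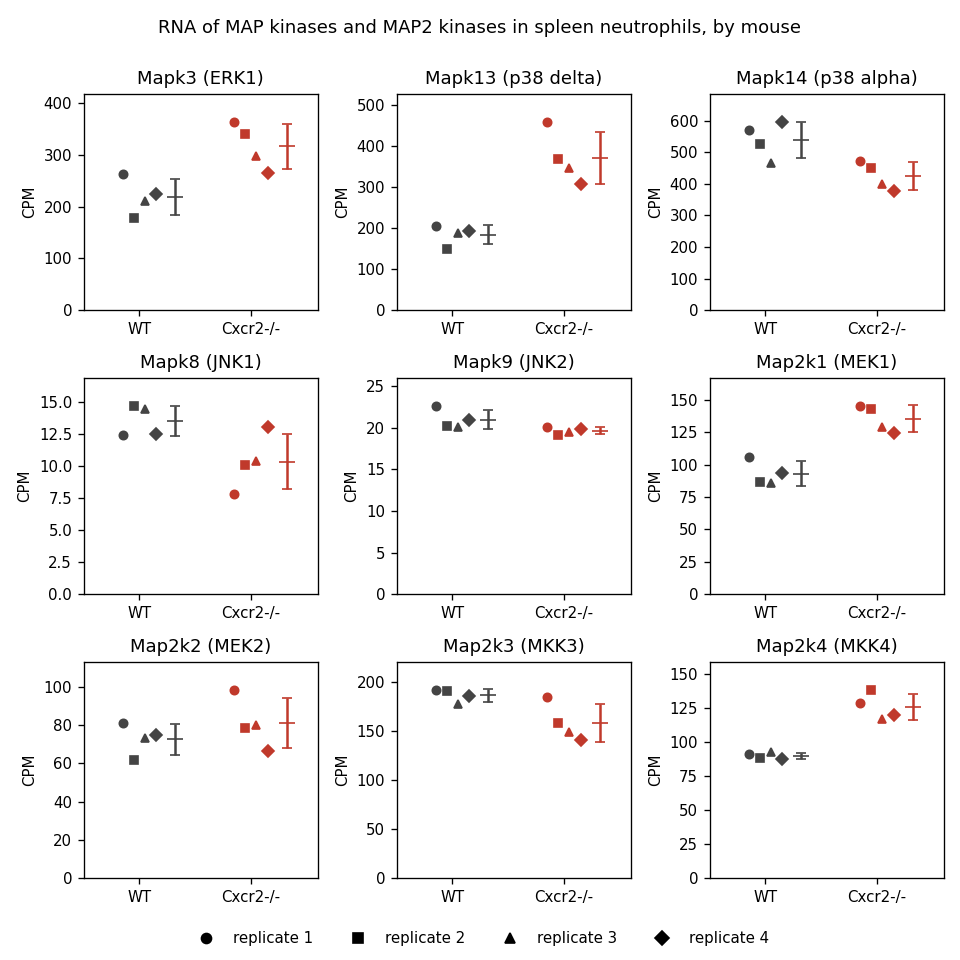
CPM of each of the 9 genes in each library, with the replicate number as marker shape, for WT (grey) and Cxcr2-/- mice (red); the bar beside each group is the mean ± SD (n = 4), and each axis starts at 0. Mapk3, Mapk13, Map2k1 and Map2k4 have every Cxcr2-/- mouse above every WT mouse, while the groups of Mapk14, Map2k2 and Map2k3 overlap.

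The p38 branch contained both the largest rise and the only fall that passed. p38 kinases answer to stress, microbial products and cytokines, and p38 alpha is the form most widely expressed across tissues. Mapk13 (ENSMUSG00000004864), at 28769297 to 28780233 on the plus strand of chromosome 17 (GRCm38), was measured at 205, 150, 187 and 193 CPM in WT replicates 1 to 4. In Cxcr2-/- replicates 1 to 4 it was at 458, 370, 348 and 307 CPM, and the lowest of these lay well above the highest WT value. Its log2 fold change was 1.01 ± 0.14 (SE), or 2.02-fold (edgeR quasi-likelihood test, adjusted p = 7.06e-05). Mapk14 (ENSMUSG00000053436) lies next to it, on the same strand from 28691329 to 28748406, and ends 20.9 kb before Mapk13 begins. Its CPM was 572, 526, 465 and 596 in WT and 473, 452, 399 and 378 in Cxcr2-/- replicates 1 to 4. Cxcr2-/- replicate 1 was above WT replicate 3, so the groups overlapped. The log2 fold change of Mapk14 was -0.34 ± 0.11 (SE; edgeR, adjusted p = 0.0249). That call was lost without WT replicate 1, WT replicate 4, Cxcr2-/- replicate 3 or Cxcr2-/- replicate 4, with adjusted p of 0.0645, 0.0894, 0.0600 and 0.0646 from edgeR. GENCODE M21 places another gene on the same strand within Mapk14, but none of its exons overlaps an exon of Mapk14.

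A ratio of 2 genes within a library does not depend on how libraries are scaled. Per exon length there were 2.01, 2.53, 1.79 and 2.22 Mapk14 transcripts for each of Mapk13 in WT replicates 1 to 4, and 0.744, 0.880, 0.827 and 0.886 in Cxcr2-/- replicates 1 to 4. Thus Mapk14 made up 67.9% ± 3.19 of the RNA of both genes in WT and 45.4% ± 2.0 in Cxcr2-/- neutrophils (SD, n = 4 each). The log2 ratio differed by -1.35 between the groups, which did not overlap (exact permutation test, two-sided, p = 0.0286, the smallest that 4 against 4 can give, and 0.0357 with Benjamini-Hochberg adjustment over 5 ratios). With the longest transcript as length, the mean ratio was 2.41 in WT and 0.945 in Cxcr2-/- neutrophils. The latter is near 1, so the side of 1 on which a single Cxcr2-/- library lies depends on the length used. The remaining p38 genes were close to absent. Mapk11 averaged 0.914 ± 0.472 CPM in WT and 0.466 ± 0.215 in Cxcr2-/- mice, and Mapk12, at 1.07 CPM or less in every library, was removed by the filter on low counts.

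Promoters of the p38 pair are shown because these neighbouring genes moved in opposite directions. The sequences are those of RefSeq on GRCm38.p6, on the plus strand, from 250 bases before to 50 bases after the start site. Capitals mark matches to 5 motifs searched on both strands, which were AP-1 (TGANTCA), CRE (TGACGTCA), C/EBP (TTGCNNAA), PU.1 (GAGGAAG) and the GC box (GGGCGG).
Mapk13, chr17:28769067-28769366: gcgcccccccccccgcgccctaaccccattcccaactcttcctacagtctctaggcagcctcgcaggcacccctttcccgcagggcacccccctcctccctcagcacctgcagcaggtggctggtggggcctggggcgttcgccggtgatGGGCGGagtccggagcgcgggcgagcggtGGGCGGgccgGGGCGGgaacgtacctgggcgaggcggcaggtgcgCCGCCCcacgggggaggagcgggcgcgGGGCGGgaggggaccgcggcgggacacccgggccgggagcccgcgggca
Mapk14, chr17:28691092-28691391: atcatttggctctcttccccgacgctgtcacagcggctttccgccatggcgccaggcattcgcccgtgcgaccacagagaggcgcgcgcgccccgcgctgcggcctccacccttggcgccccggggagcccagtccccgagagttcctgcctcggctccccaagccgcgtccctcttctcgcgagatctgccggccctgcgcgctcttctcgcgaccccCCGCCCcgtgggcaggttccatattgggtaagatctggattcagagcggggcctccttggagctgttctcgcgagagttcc
All capitals in both sequences are GC boxes, 5 in Mapk13 and 1 in Mapk14. G and C made up 78.0% of the Mapk13 and 68.7% of the Mapk14 sequence. A start site of Mapk8, which did not pass, had 77.7% G and C and held 7 GC boxes. Map2k1, which was higher, and Map2k3, which did not pass, held 4 each. The number of boxes per promoter was not compared with that of all promoters. A GC box was found in 35.7% of the 32851 promoters of this length, an AP-1 match in 7.81%, a CRE in 1.79%, a C/EBP match in 10.8% and a PU.1 match in 13.6%. The table has 11 promoters for 8 of the 9 genes. A second start site of Mapk14 and both start sites of Map2k4 held C/EBP matches, and none of the 11 held a match to AP-1, CRE or PU.1. Letters of this kind describe the sequence and do not show binding.

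MKK3, encoded by Map2k3, activates the p38 kinases. Map2k3 (ENSMUSG00000018932), on chromosome 11 from 60932033 to 60952811, was at 192, 192, 178 and 186 CPM in WT replicates 1 to 4. In Cxcr2-/- replicates 1 to 4 the CPM was 186, 159, 149 and 141, and Cxcr2-/- replicate 1 lay within the WT range. The log2 fold change was -0.24 ± 0.10 (SE), which did not pass (edgeR quasi-likelihood test, adjusted p = 0.0699). Without Cxcr2-/- replicate 1 it did, at -0.31 (edgeR, adjusted p = 0.0136), the only 1 of 8 fits with a library left out that passed. Of 9 alternative fits on all libraries 4 passed. Map2k6, which encodes the other p38-specific activator, MKK6, averaged 1.39 ± 0.529 CPM in WT and 1.72 ± 0.378 in Cxcr2-/- mice, or 0.403 and 0.50 CPM per kb, far below Map2k3.

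MKK4 stands between the branches, as it activates JNK and also p38. Map2k4 (ENSMUSG00000033352), on chromosome 11 from 65688243 to 65788297, varied little among WT mice, at 91.0, 88.1, 92.5 and 87.2 CPM in replicates 1 to 4. It was at 129, 138, 117 and 120 CPM in Cxcr2-/- replicates 1 to 4, all above the WT values. The log2 fold change was 0.49 ± 0.08 (SE), or 1.40-fold (edgeR quasi-likelihood test, adjusted p = 4.88e-04). The ratio of Map2k3 to Map2k4 per exon length therefore ranged from 2.71 to 3.06 in WT and from 1.62 to 2.03 in Cxcr2-/- libraries. On the log2 scale that ratio differed by -0.73 (exact permutation test, two-sided, p = 0.0286, adjusted 0.0357 over 5 ratios).

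**Figure D3:**
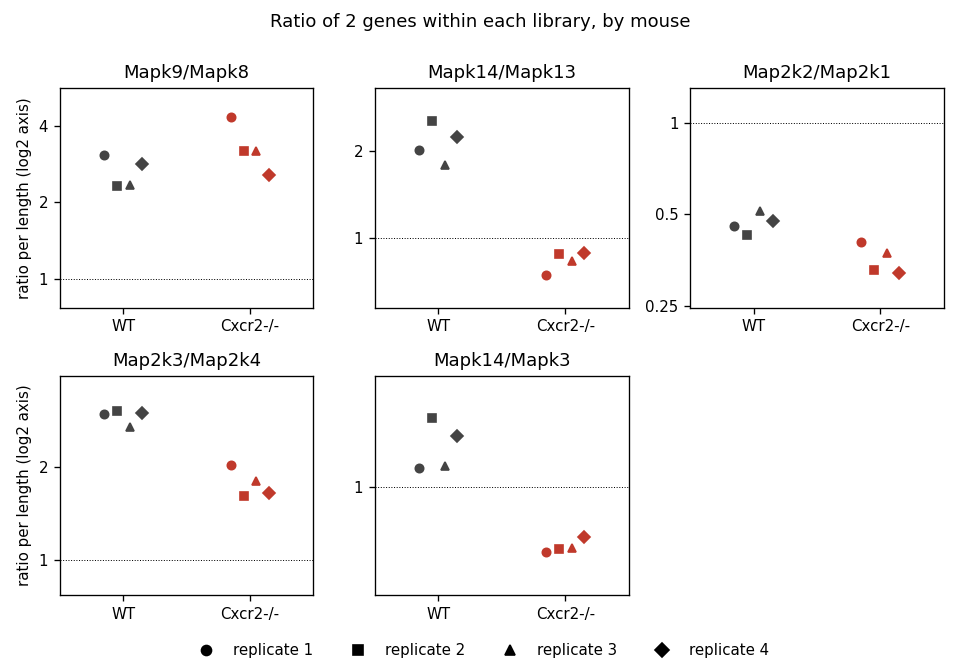
Ratio of the RNA of 2 genes per exon length in each library, on a log2 axis, for 5 pairs, with the replicate number as marker shape and a dotted line where both genes are equal. By merged exon length, the ratio of Mapk14 to Mapk13 lies above 1 in every WT and below 1 in every Cxcr2-/- library, and so does that of Mapk14 to Mapk3. The groups overlap for Mapk9 to Mapk8. With the longest transcript as length, the mean Mapk14 to Mapk13 ratio in Cxcr2-/- libraries is 0.945, near 1.

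In the ERK branch, growth factor and chemoattractant signals pass through MEK1 and MEK2 to the ERK kinases, of which Mapk3 encodes ERK1. Mapk3 (ENSMUSG00000063065), on chromosome 7 from 126759601 to 126765819, was at 263, 178, 211 and 224 CPM in WT replicates 1 to 4. In Cxcr2-/- replicates 1 to 4 it was at 363, 339, 298 and 265 CPM, and the lowest of these exceeded the highest WT value by under 2 CPM. The log2 fold change was 0.53 ± 0.13 (SE), or 1.45-fold (edgeR quasi-likelihood test, adjusted p = 0.00594). Relative to Mapk3, Mapk14 moved the other way. The ratio of Mapk14 to Mapk3 ranged from 1.12 to 1.53 in WT and from 0.672 to 0.736 in Cxcr2-/- libraries, a difference of -0.88 on the log2 scale with the same exact permutation p of 0.0286 and adjusted 0.0357.

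Among the ERK activators, Map2k1 (ENSMUSG00000004936), on chromosome 9 from 64185770 to 64253631, was at 106, 86.7, 85.6 and 93.9 CPM in WT replicates 1 to 4. It was at 145, 143, 129 and 124 CPM in Cxcr2-/- replicates 1 to 4, with no overlap between the groups. Its log2 fold change was 0.54 ± 0.10 (SE), or 1.45-fold (edgeR quasi-likelihood test, adjusted p = 6.76e-04). Map2k2 (ENSMUSG00000035027), on chromosome 10 from 81105915 to 81133975, was at 81.0, 61.8, 73.1 and 74.7 CPM in WT and at 98.4, 78.8, 80.2 and 66.7 CPM in Cxcr2-/- replicates 1 to 4. Here the groups overlapped widely, and the difference was 0.16 ± 0.12 (SE) on the log2 scale (edgeR, adjusted p = 0.321). That difference was 0.06 without WT replicate 2 and also 0.06 without Cxcr2-/- replicate 1. Per exon length Map2k2 stood at 0.427 to 0.511 of Map2k1 in WT and at 0.321 to 0.406 in Cxcr2-/- libraries (log2 difference -0.39, exact permutation test, two-sided, p = 0.0286, adjusted 0.0357 over 5 ratios). By the longest transcripts the mean ratio was 0.790 in WT and 0.601 in Cxcr2-/- libraries.

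JNK kinases act on AP-1 proteins and in stress and death signaling. Mapk9 (ENSMUSG00000020366), on chromosome 11 from 49846751 to 49886421, was at 22.6, 20.2, 20.2 and 21.0 CPM in WT and at 20.1, 19.1, 19.5 and 19.9 CPM in Cxcr2-/- replicates 1 to 4. The groups just failed to overlap, but the log2 fold change was only -0.09 ± 0.09 (SE, edgeR quasi-likelihood test, adjusted p = 0.426), and -0.05 without WT replicate 1. Mapk8 (ENSMUSG00000021936), on chromosome 14 from 33377898 to 33447158, was at 12.5, 14.7, 14.5 and 12.5 CPM in WT and at 7.84, 10.1, 10.4 and 13.1 CPM in Cxcr2-/- replicates 1 to 4. Cxcr2-/- replicate 4 lay inside the WT range and the other Cxcr2-/- mice below it. The log2 fold change was -0.39 ± 0.15 (SE), just outside the threshold in edgeR (adjusted p = 0.0529) and inside it in DESeq2 (-0.40, adjusted p = 0.0363), where 17.0% of 22332 genes were lower. Without Cxcr2-/- replicate 4 it was -0.53 (adjusted p = 0.0108 in edgeR), the only 1 of 8 fits with a library left out that passed. Without Cxcr2-/- replicate 1 it was -0.27 (edgeR adjusted p = 0.133). Of 9 alternative fits on all libraries 6 passed. With the share of pairs that met no gene as a covariate, Mapk8 was at -0.07 (edgeR adjusted p = 0.869). The ratio of Mapk9 to Mapk8 per exon length was 2.62 in WT and 3.26 in Cxcr2-/- neutrophils, with overlap (log2 difference 0.31, exact permutation test, two-sided, p = 0.143, also after adjustment over 5 ratios). Without Cxcr2-/- replicate 1 that difference was 0.18.

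The same libraries stood at an end of their group's range for several of the genes. Among Cxcr2-/- mice, replicate 1 had the highest CPM for 7 of the 9 genes and replicate 4 the lowest for 6. Mapk8 was the reverse of this, lowest in replicate 1 and highest in replicate 4. Among WT mice, replicate 1 was highest for 6 of the 9 genes. In each group replicate 1 also had the smallest share of pairs that met no gene, 31.4% in WT and 26.7% in Cxcr2-/-. With that share as a covariate, a fit chosen after seeing the data, 3083 genes were called in place of 7495. In it Mapk13 still passed at 0.68 (adjusted p = 0.0478) and Mapk14 at -0.55 (adjusted p = 0.0496), while Map2k4 at 0.45 (adjusted p = 0.0519), Map2k1 at 0.28 (adjusted p = 0.187) and Mapk3 at 0.14 (adjusted p = 0.638) did not pass edgeR's quasi-likelihood test. As all but 1 of the WT shares were above every Cxcr2-/- share, share and genotype cannot be fully told apart here.

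The 9 genes were set beside other members of both families. Of 8 other MAP kinase genes, 6 were tested, 3 of them higher and 0 lower, and of the 3 other MAP2 kinase genes 1 was higher, beside 23.7% higher and 21.0% lower among all genes tested. DESeq2 called 3 and 1 higher, respectively, and 1 other MAP kinase lower, beside 17.4% higher and 17.0% lower among all genes. Counts over so few genes do not set either family apart from these shares. Mapk6, which encodes the atypical kinase ERK3, rose most, its mean CPM going from 33.5 ± 1.22 to 89.8 ± 10.0 (SD, n = 4 each). Its values were 31.9 to 34.9 CPM in WT and 80.5 to 102 CPM in Cxcr2-/- libraries, a difference of 1.42 ± 0.10 (SE) on the log2 scale (edgeR quasi-likelihood test, adjusted p = 3.69e-07). Mapk7 (ERK5) and its activator gene Map2k5 (MEK5) had log2 fold changes of 0.50 and 0.46 (edgeR adjusted p = 0.00509 and 0.0283), and Mapk4 (ERK4) one of 0.40 (edgeR adjusted p = 0.0280). With 1 library left out, Map2k5 passed in 4 of 8 fits and Mapk4 in 3 of 8, the highest edgeR adjusted p being 0.0937 (without Cxcr2-/- replicate 3) and 0.0777 (without Cxcr2-/- replicate 1). Of 9 alternative fits on all libraries, Mapk7 passed in 8, Map2k5 in 6 and Mapk4 in 4. The fit in which Mapk7 did not pass had the share of pairs that met no gene as a covariate (edgeR adjusted p = 0.524). The log2 fold change of Map2k7, the JNK activator MKK7, was 0.26 (adjusted p = 0.0688), that of Nlk -0.20 (adjusted p = 0.0816), that of Map2k6 0.30 (adjusted p = 0.425) and that of Mapk10 (JNK3), under 1 CPM in every library, -0.58 (adjusted p = 0.204, all from edgeR). Mapk11 was at -0.97 ± 0.49 (SE, adjusted p = 0.128 from edgeR), and Mapk15 had no more than 0.0972 CPM in any library.

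**Figure D4:**
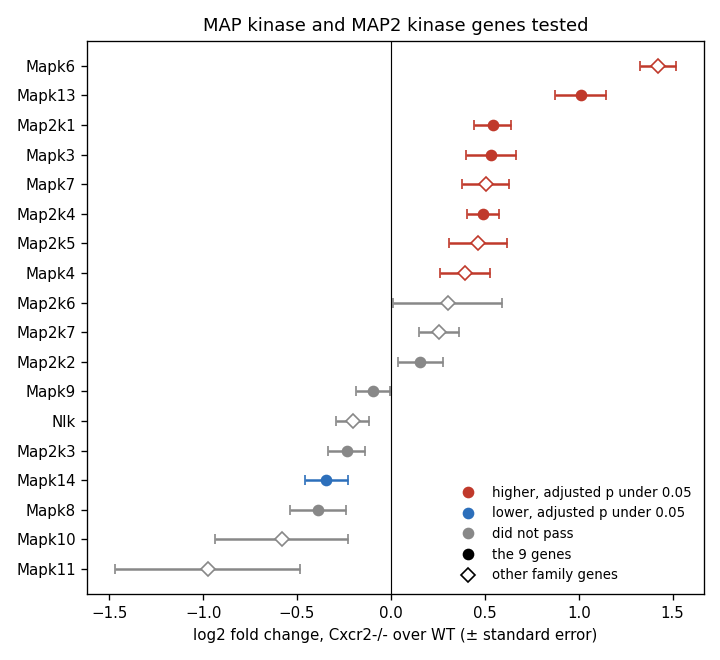
Log2 fold change (Cxcr2-/- over WT) ± standard error from edgeR for the 9 genes (filled circles) and 9 other tested MAP kinase and MAP2 kinase genes (open diamonds), colored by direction where the adjusted p was under 0.05 and grey where it was not. Mapk6 at 1.42 and Mapk13 at 1.01 lie furthest to the right, and Mapk14 at -0.34 is the only gene called lower.

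Other tiers of the cascade were counted with the same edgeR test and an adjusted p under 0.05, by which 21.0% of all genes tested were lower, 23.7% higher and 44.7% either. The scaffolds, with 5 of 11 called, lay near the last of these shares, as did the MAP3 kinases called higher near the second. Upstream, of 18 MAP3 kinase genes tested, 7 were lower and 5 higher, and among those with an average log2 CPM of 3 or more Map3k5 (ASK1) fell most, at -1.12, and Map3k7 (TAK1) rose most, at 0.61. Downstream, 5 of 9 MAPK-activated kinases were higher and 2 lower (3 and 2 in DESeq2). Mapkapk3, a p38 target kinase, rose from 81.6 ± 4.70 to 136 ± 30.7 CPM (log2 fold change 0.74), and Rps6ka5, the kinase MSK1, fell from 39.7 ± 2.27 to 25.7 ± 2.46 CPM (log2 fold change -0.63). Of 11 scaffold and adaptor genes, 3 were lower and 2 higher, with Spag9 (JIP4) at -0.42 and Lamtor2 at 0.99. Among 8 MAPK phosphatase genes, 6 were lower and 0 higher, and Dusp1 fell from 3698 ± 369 to 725 ± 262 CPM (log2 fold change -2.35). Among 14 genes of transcription factors phosphorylated by MAP kinases or by kinases that these activate, 9 were lower and 2 higher, from Fos at -2.82 to Ets1 at 0.72. The median log2 fold change was 0.32 for the 4 MAP2 kinases and -0.09 for the 5 MAP kinases described here, -1.10 for the phosphatases and 0.01 for all genes tested. The immediate early genes, several of which are in these lists, share their direction in these libraries, with 13 of 14 lower.

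**Figure D5:**
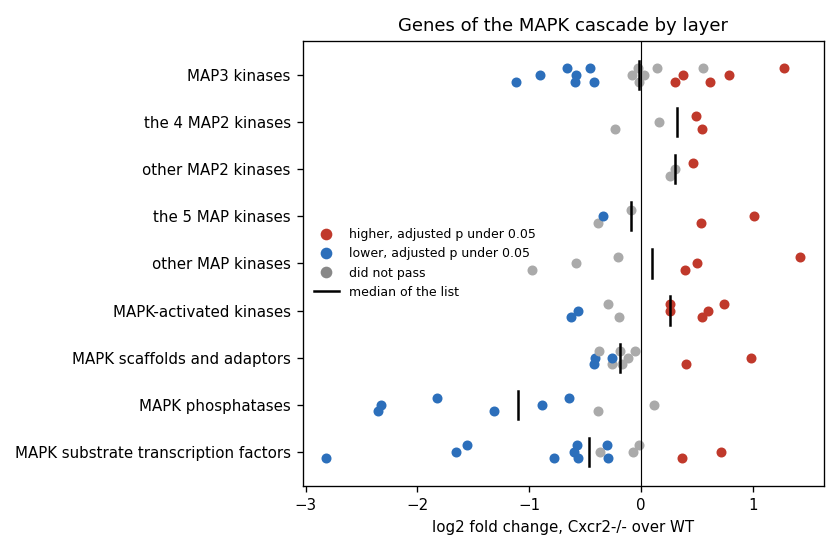
Log2 fold change (Cxcr2-/- over WT) of the tested genes of each list, 1 point per gene, by tier of the MAPK cascade, colored by direction where edgeR's adjusted p was under 0.05, with the median of each list as a black bar. The phosphatases have 6 of 8 genes lower and 0 higher, while the MAP2 kinases and MAP kinases have medians of 0.32 and -0.09.

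For each of the 5 genes that passed, the tested genes with the most similar CPM profile over the 8 libraries were found by the root mean square difference of log2 CPM, after each gene was centred on its own mean. Mpnd and Aldh2 were nearest to Mapk13, at 0.0378 and 0.0416, and Plekhg3 and Clip1 nearest to Mapk14, at 0.0428 and 0.0457. Pkm, the glycolytic enzyme pyruvate kinase, and Washc1 were nearest to Mapk3, at 0.0460 and 0.0546. Ppp2cb, a catalytic subunit of the phosphatase PP2A, and D17H6S53E were nearest to Map2k1, at 0.0430 and 0.050, and Ttc9c and Exoc2 nearest to Map2k4, at 0.0321 and 0.0419. Only genes averaging 3 or more on the log2 CPM scale entered, and with so many profiles some are close by number alone.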

How the data were processed

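RNAseq was done on splenic neutrophils, with 1 library for each of 4 WT and 4 Cxcr2-/- mice. The authors depleted ribosomal RNA and made directional libraries. Reads were trimmed and mapped by STAR on mm10, and HTSeq gave the gene counts. The deposited values are whole-number counts per gene without normalization. The annotation and the strand setting of the counting are not given in the sources used here. Of 52133 gene identifiers also found in GENCODE M21 (GRCm38), 35 had the same version, so exon models may differ from those used for the counting. Pairs of reads that did not align uniquely were not counted on genes.

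Testing used edgeR 4.0.16 under R 4.3.3 (quasi-likelihood test, TMM, filterByExpr, Benjamini-Hochberg over 16778 genes). DESeq2 1.42.0 was an alternative. These steps were tested on simulated data. CPM used TMM-normalized library sizes, and levels between genes were divided by merged exon length. Ratios were compared by exact permutation tests in scipy 1.17.1. Alternatives were other normalizations, filters and covariates, the replicate number as a block, and each library left out. The covariate for pairs that met no gene was added after the data were seen.

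The 9 genes and all lists were chosen with earlier results of these data known. Named genes are the 9, other tested genes of both families, the largest called rise and fall of each pathway list at an average log2 CPM of at least 3, the 2 nearest profiles of each called gene, and markers. Results on certain genes of the cascade are not reported here. Libraries are from separate mice. No 2 libraries of a group were alike within counting error (chi-square divided by the number of genes, 23.9 to 99.0).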

Additional observations from a re-analysis of the deposited data

Results flagged for a closer look

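Mapk7, the ERK5 gene, was at 103 CPM in Cxcr2-/- replicate 1 and between 69.2 and 73.1 CPM in the other 3 Cxcr2-/- mice, so that the gap took up 0.885 of the range of the group, above Dixon's critical value for 4 samples. Of 46 groups tested in this way (the tested genes of both kinase families and 5 ratios, in each genotype) this was the only 1, and chance flags about 1 in 20. Without that library the adjusted p of Mapk7 was still under 0.05 with edgeR, as in each of the 8 fits that left out 1 library, and with the share of pairs that met no gene as a covariate it was 0.524.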

How the results depend on the processing

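The 4 genes called higher stayed at 4 with DESeq2, RLE, upper-quartile or total-count scaling, both other filters, the replicate block, the covariate for RNA of other cells and each library left out. With the covariate for pairs that met no gene, added later, 1 was called higher, 1486 genes in all were lower (3526 without it) and 1597 higher (3969), and the log2 fold change of Map2k2 turned to -0.17. One gene, Mapk14, was called lower. With DESeq2, RLE, total counts, no filter, the covariate for other cells and the replicate number as a block 2 were called lower. With upper-quartile scaling or at least 10 counts in every library it was 3, the added genes being Mapk8 and Map2k3. In those fits 3349 to 4391 of all genes were lower (3526 in the main fit) and 3076 to 4113 higher (3969). The most lower and fewest higher came with upper-quartile scaling. Leaving out 1 library gave 0 to 2 of the 9 genes lower, beside 3062 to 3520 of all genes. The 4 called higher in each of these fits stood beside 3426 to 3774 of all genes. Mapk14 kept its call in the 9 fits on all libraries and in 4 of 8 with a library left out. The same number does not mark paired animals (correlation of deviations 0.116, -0.188, 0.158 and -0.262 for numbers 1 to 4), not every library correlated best with the library of its own number, and with the block Mapk8 alone changed its call among the 9 genes. Upper-quartile scaling moved the median log2 fold change of all genes to -0.11 and the share of calls that were higher from 53.0% to 41.2%. The sizes for the kinase genes moved with it. Mapk3 went from 0.53 to 0.41, Mapk13 from 1.01 to 0.89, Map2k1 from 0.54 to 0.42 and Map2k4 from 0.49 to 0.37. Mapk14 went from -0.34 to -0.46 and Map2k3 from -0.24 to -0.36. Differences of the 5 ratios moved by less than the spread between mice when a library was left out or 0.5 was added to both counts, that of Mapk9 to Mapk8 going from 0.31 to 0.18 without Cxcr2-/- replicate 1. With the longest transcript as length, 16 of 18 levels per kb moved by more than their SD. Of 20 list counts 2 moved by over 1.5 times with DESeq2. The lowest count of the 9 genes in a library was 310, and each group has 4 mice.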
